A study of Mus musculus with 35 samples.

Results

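Expression of 10 cell cycle genes that are known as barriers to reprogramming, or that act directly on them, was followed through the making of iPS cells. These are the Ink4a/Arf locus genes Cdkn2a and Cdkn2b, the p53 axis genes Trp53, Mdm2 and Cdkn1a, the inhibitor Cdkn1b, the cyclins Ccnd1, Ccnd2 and Ccne1, and Rb1. They were chosen by name, and all 18 probes to which the array design gives one of these names were taken, out of 41174 gene probes under 27962 names. The measurements were made on 35 arrays of 1 colour (Agilent), with 1 array per clone or cell sample.

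The clones came from 3 kinds of cells of 6-week-old mice that carried a Nanog-GFP-Puro reporter. PαS cells (CD45-Ter119-PDGFRa+Sca-1+), a mesenchymal stem cell fraction of bone marrow, and OP cells (CD45-Ter119-PDGFRa-Sca-1-), osteoprogenitors of the same marrow, were sorted and expanded for 2 weeks. TTF, tail tip fibroblasts, were used at passage 3. All were infected with retroviruses for Oct3/4, Sox2, Klf4 and c-Myc (4F) or without c-Myc (3F), and 5 GFP+/DsRed- clones of each of the 6 combinations were grown on mitomycin-C-treated SNL feeder cells. The ES arrays were of the lines EB-3 (ES 1) and RF8 (ES 2), and PαS, OP and TTF cells before reprogramming (primary cells) had 1 array each. The sources used here do not say whether clones of a group share a donor mouse or a transduction, so that p-values measure the spread between clones.

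The p53 protein is a transcription factor that stops the cell cycle or triggers cell death after damage or oncogenic stress. Mdm2, itself a p53 target, marks p53 for degradation, and Arf, a product of Cdkn2a, blocks Mdm2. Ink4a, the other product of Cdkn2a, and Ink4b, made from the neighbouring Cdkn2b, inhibit the cyclin D kinases that inactivate Rb1, and the p53 target Cdkn1a (p21) inhibits cyclin-dependent kinases more broadly. Reprogramming factors are known to switch on these brakes in somatic cells.

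Several sequences bear on how the levels can be read. The array has a single probe for Cdkn2a, at chr4:88678367-88678426 (mm7), and its annotation lists both transcripts of the gene, so that Ink4a and Arf could not be told apart. The 2 transcripts start 12427 bases apart on the minus strand of chromosome 4 in RefSeq (GRCm38.p6). The 250 bases before each start, at chr4:89294620-89294869 for the upstream start and chr4:89282193-89282442 for the downstream one, are shown since 1 probe reports on both.
Cdkn2a, upstream start: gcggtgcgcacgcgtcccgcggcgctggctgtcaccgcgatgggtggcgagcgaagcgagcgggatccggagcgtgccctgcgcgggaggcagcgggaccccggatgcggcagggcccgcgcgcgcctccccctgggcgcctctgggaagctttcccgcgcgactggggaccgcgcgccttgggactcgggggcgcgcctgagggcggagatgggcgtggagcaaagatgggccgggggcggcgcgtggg
Cdkn2a, downstream start: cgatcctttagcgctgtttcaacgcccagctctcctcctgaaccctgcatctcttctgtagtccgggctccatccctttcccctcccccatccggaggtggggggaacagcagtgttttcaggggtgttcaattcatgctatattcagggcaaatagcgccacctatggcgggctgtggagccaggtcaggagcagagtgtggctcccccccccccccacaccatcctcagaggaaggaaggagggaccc

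The 250 bases before the upstream start of Cdkn1a (GRCm38.p6, chr17:29090729-29090978, plus strand) are shown since they hold the core of a p53 element, in capitals, 48 bases before the start.
Cdkn1a, upstream start: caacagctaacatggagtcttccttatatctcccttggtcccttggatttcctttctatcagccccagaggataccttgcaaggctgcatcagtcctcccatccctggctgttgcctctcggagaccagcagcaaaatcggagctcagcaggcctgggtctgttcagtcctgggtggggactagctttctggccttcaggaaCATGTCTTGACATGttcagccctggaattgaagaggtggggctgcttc

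This core, CATG repeated after 6 bases of any kind, was searched on both strands. It was found in 0.712% of 32851 RefSeq promoter windows of 300 bases (250 before and 50 after the start), and in 1 of the 9 windows that RefSeq lists for 7 of the 10 genes. The E-box CACGTG was in 7.15% of all windows and in 1 of the 9, that of Trp53, at 10 bases after the start. The E2F motifs TTTCGCGC or TTTGGCGC were in 0.813% of windows and in none of the 9.

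For Trp53 and Mdm2 the probes are shown because results turned on which one was read. The brighter Trp53 probe lay at chr11:69671206-69671265 (mm7), and the dimmer one at chr11:69662031-69662089. A further probe, at chr17:52578809-52578868, is annotated by the array design as a partial p53-variant mRNA and carries no member's name. The dimmer of both Mdm2 probes lay at chr10:117204040-117204099.
Trp53, brighter probe: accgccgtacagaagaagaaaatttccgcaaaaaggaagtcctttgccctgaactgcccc
p53-variant probe: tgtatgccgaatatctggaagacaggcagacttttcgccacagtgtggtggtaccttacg
Mdm2, dimmer probe: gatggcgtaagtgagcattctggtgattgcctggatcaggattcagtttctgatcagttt

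Probes of a gene were compared over the 30 clones, as a description. Both Mdm2 probes moved together (r = 0.945), as did the 3 probes of Ccnd2 (r = 0.973 to 0.989) and both of Ccne1 (r = 0.941), and the 2 brighter Cdkn1b probes did so less closely (r = 0.663). The Trp53 probes did not (r = -0.26), whereas the brighter Trp53 probe and the p53-variant probe followed each other closely (r = 0.986). The sequences of these last probes share no run longer than 5 bases. Probes under 1 gene's name shared at most 5 (Cdkn1b) to 8 (Mdm2) bases, so that shared runs cannot tell transcripts apart. How much of the brighter probe's signal came from Trp53 transcripts was not tested. The dimmest probe of Cdkn1b and the dimmer one of Rb1 were well above background on 2 of the 30 clones and are not used.

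Each value below is either a log2 level or a log2 difference between such levels. A log2 level of 0 means that a probe was as bright as the 75th percentile of its array. Where a gene has several probes, the brightest over all arrays stands for it, and all 10 of these were well above background on every array. Differences were tested with limma over all probes, and a gene was called changed at an adjusted p under 0.05 (Benjamini-Hochberg) and at least 2-fold. Since these are bulk samples, fewer cells of a type and less RNA per cell cannot be told apart.

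Some arrays stood apart. Of 8 listed pluripotency genes 2 to 3 were above background on each primary array, but Pou5f1, Nanog and Sox2 were not on any of them. The OP array had bone genes at high log2 levels (Ibsp 3.65, Alpl 4.50), but also Pdgfra at 1.58, against 0.98 on the PαS array, although OP cells were sorted as PDGFRa-. The mean log2 level of both PαS sort genes, Pdgfra and Ly6a (Sca-1), was 3.28 on the PαS and 2.56 on the OP array. The TTF array held Ptprc (CD45), a marker of blood cells, at 4.14. In the clones, 4F-OP-iPS #1, #2 and #3 and 4F-TTF-iPS #1 were low in Sox2 and Nanog. All clones were scanned in 1 session, EB-3 with the primary cells in another and RF8 in one of its own, so that differences of the clones from primary or ES cells cannot be told apart from the session.

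Against ES cells, the clones had more RNA of the inhibitors and less of Ccne1, while Trp53 was lower by its brighter probe and higher by its dimmer one. Of the 10 genes 7 were called, 5 higher and 2 lower in clones, beside 36.2% of the 27623 probes tested, and 8 passed at the adjusted p alone, beside 52.4%. The median log2 difference of the 10 was 1.02, while that of all probes was -0.11. Genes of fibroblasts, the cell type of the feeder layer, differed as well. Of 17 tested from a list of 18, 15 were called higher and 0 lower in clones than in ES cells (median log2 difference 3.56). The mean log2 level of this list was -5.47 in EB-3, 0.30 in RF8, -0.56 to 2.95 in clones and 3.22 to 4.55 in primary cells, and 16 to 18 of its genes were above background on each clone array. Between the ES lines, Cdkn2b (log2 difference of RF8 minus EB-3 3.94), Cdkn1b (0.85) and Ccnd1 (0.70) were higher in RF8. Lower in RF8 were Cdkn1a (-1.20), Cdkn2a (-0.41), Mdm2 (-0.32), Ccnd2 (-1.34), Trp53 (-0.51), Ccne1 (-0.94) and Rb1 (-0.17). The part of the fibroblast list in the differences of Cdkn2a, Cdkn2b, Cdkn1a, Cdkn1b and the other members from ES cells was not tested. Against the primary cells 5 of 10 were called, 3 higher and 2 lower in primary cells, by either rule, beside 39.1% (59% at the adjusted p alone) of 28300 probes. This share of members was near the background. It rested on the single primary OP array, without which 1 of 10 was called, Ccnd1.

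Among clones few of the genes differed. Between 3F- and 4F-clones no gene was called (background 5.34%), and 2 passed at the adjusted p alone (background 21.2%), which is near the background share. Between PαS- and OP-iPS clones 1 was called, beside 1.6% of probes, and 3 passed at the adjusted p alone, beside 3.69%. None was called between PαS- and TTF-iPS clones (background 0.5%, or 1.3% at the adjusted p alone) or between OP- and TTF-iPS clones (0.0217% and 0.029%). These backgrounds moved with single clones. Without 4F-OP-iPS #2 the probes passing at the adjusted p alone rose from 1019 to 3757 for PαS- against OP-iPS and from 8 to 873 for OP- against TTF-iPS, and without 4F-OP-iPS #3 the former fell to 310. For PαS- against TTF-iPS they ran from 73 (without 4F-TTF-iPS #1) to 601 (without 4F-PαS-iPS #2). The unadjusted limma p was under 0.05 for 4588 and 2806 of the 27623 probes for PαS- against TTF-iPS and OP- against TTF-iPS.

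**Figure D1:**
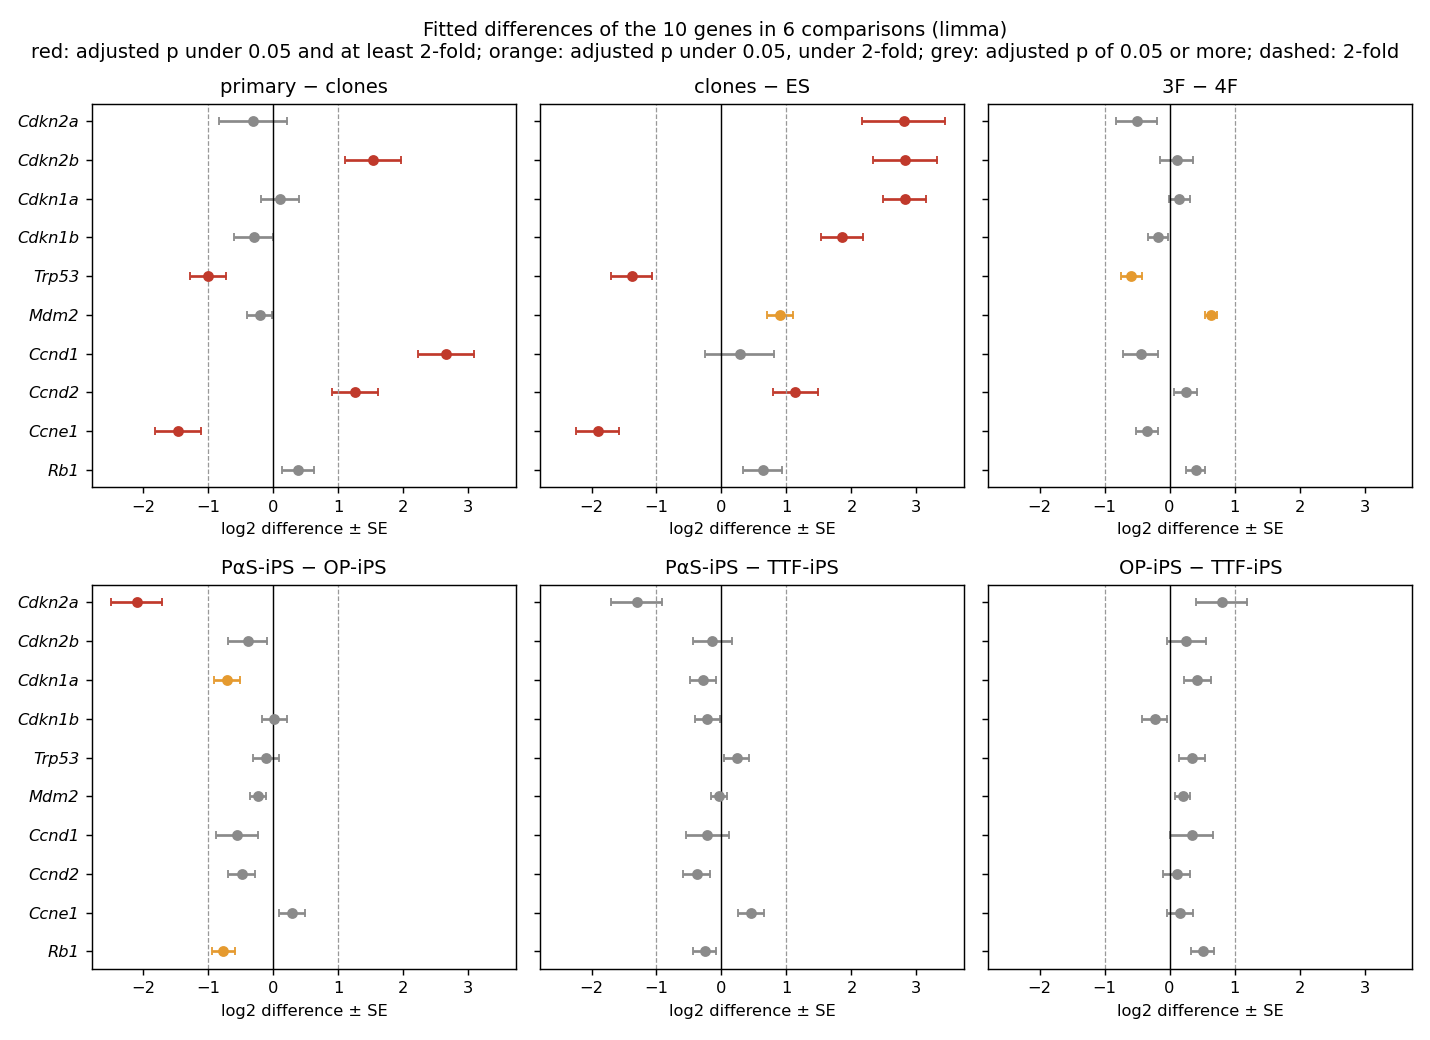
Fitted log2 differences (points) with their standard errors (bars) of the 10 genes in 6 comparisons, with 2-fold marked by dashed lines. Cdkn2a, Cdkn2b and Cdkn1a were each about 2.8 log2 units above ES cells in the clones (for Cdkn2b, 0.85 against RF8 alone and 4.79 against EB-3 alone), and Cdkn2a was 2.10 lower in PαS-iPS than in OP-iPS clones.

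Cdkn2a varied most among the clones, and PαS-iPS clones had the least of it. In 4F-PαS-iPS clones #1 to #5 its log2 levels were -2.35, -1.35, -1.88, -3.23 and -1.73, and in 3F-PαS-iPS clones -1.53, -1.81, -2.18, -1.86 and -2.75. All 10 lay below the primary PαS cells, at -0.93.

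OP-iPS clones ranged far more widely. The 4F-OP-iPS clones had log2 levels of 1.92, -2.08, 1.39, -1.73 and 1.30, and the 3F-OP-iPS clones of 0.81, -1.08, 0.49, -0.10 and -0.59. Clones #1, #3 and #5 of the 4F group were high and #2 and #4 lay among the PαS-iPS clones, while the 3F-OP-iPS clones were all above the 3F-PαS-iPS clones. Primary OP cells were at -0.88, and 7 of 10 OP-iPS clones lay above them.

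In TTF-iPS clones Cdkn2a was lower in all 3F- than in all 4F-clones, which shared no slide. The 4F-TTF-iPS clones had log2 levels of 0.10, -0.11, 0.24, -0.04 and -0.63, and the 3F-TTF-iPS clones of -1.01, -1.30, -1.49, -1.69 and -1.73. The groups did not overlap, but the log2 difference of 3F minus 4F, -1.36 ± 0.554 (SE), had a limma adjusted p of 0.115. With slide as a fixed term it was 0.016. That value rested on 1 clone of each group (3F-TTF-iPS #1 on slide 6, 4F-TTF-iPS #5 on slide 4). These were linked through PαS- and OP-iPS clones, and the other TTF-iPS clones did not enter it. All 10 TTF-iPS clones lay above primary TTF, at -1.93. ES cells, at -3.53 and -3.94, lay below all 30 clones.

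The SD of Cdkn2a over the 30 clones was 1.28 log2 units, higher than for 97.5% of 20292 probes, whose median SD was 0.386. Groups accounted for 57.0% of its variance. PαS-iPS clones were lower than OP-iPS clones by a log2 difference of -2.10 ± 0.392 (SE, n = 10 and 10, limma adjusted p = 0.00645), 4.29-fold, with an overlap owed to 4F-OP-iPS #2 and #4. On slides that held clones of both sources the log2 differences were -1.67, -1.73 and -2.17 (slides 2, 3 and 5), each with PαS-iPS lower. With slide as a fixed term the difference was -1.94 (adjusted p = 0.0818), and with slide as a random block -1.95 (adjusted p = 0.0175). The pluripotency list was higher in PαS- than in OP-iPS clones (median log2 difference 1.91, 1 of 8 genes called). Among the OP-iPS clones, 4F-OP-iPS #1, #2 and #3 were low in Sox2 and Nanog. The part of this list in the difference of Cdkn2a was not tested.

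PαS-iPS clones were also lower in Cdkn2a than TTF-iPS clones by -1.30 ± 0.392 (log2, SE), which did not pass (adjusted p = 0.0907, 95% interval -2.10 to -0.50). Without the 4 clones low in Sox2 and Nanog it was -1.28 and passed (adjusted p = 0.0416). These sources shared only slide 4, where 3 clones of 3F-PαS-iPS averaged -1.21 against the 1 clone of 4F-TTF-iPS (log2 difference). With slide as a random block, the probes passing at the adjusted p alone in this comparison fell from 359 to 9. Against ES cells the clones were higher by 2.80 ± 0.639 (log2, SE, adjusted p = 0.000657), 6.97-fold. The difference between primary cells and clones, -0.31, lay within its error (95% interval -1.38 to 0.75), and PαS-iPS clones fell below their source array while TTF-iPS clones lay above theirs.

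Cdkn2b was higher in primary PαS and OP cells than in any clone, while primary TTF lay within the range of the clones. Its log2 levels were 4.07, 4.56 and 2.63 in primary PαS, OP and TTF cells, and no clone lay above its own source. The 10 PαS-iPS clones lay between 1.67 and 2.15 (median 2.10), the 10 TTF-iPS clones between 1.69 and 2.48 (median 2.23), and the OP-iPS clones between 0.94 and 3.28 (median 2.59). The 4F-OP-iPS clones were again split, with 2.39, 3.0 and 3.28 in #1, #3 and #5 against 0.94 and 1.61 in #2 and #4.

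Primary cells exceeded the clones in Cdkn2b by a log2 difference of 1.53 ± 0.427 (SE, limma adjusted p = 0.00302), 2.89-fold. Without the primary OP array this was 1.13 (adjusted p = 0.0635). The clones exceeded ES cells by 2.82 ± 0.494 (adjusted p = 3.5e-05), yet the ES lines themselves were 15.3-fold apart, at -2.56 in EB-3 and 1.37 in RF8. Against RF8 alone the log2 difference was 0.85 (adjusted p = 0.124). The fibroblast list, too, was far lower in EB-3 than in RF8, and its part in these differences was not tested.

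**Figure D2:**
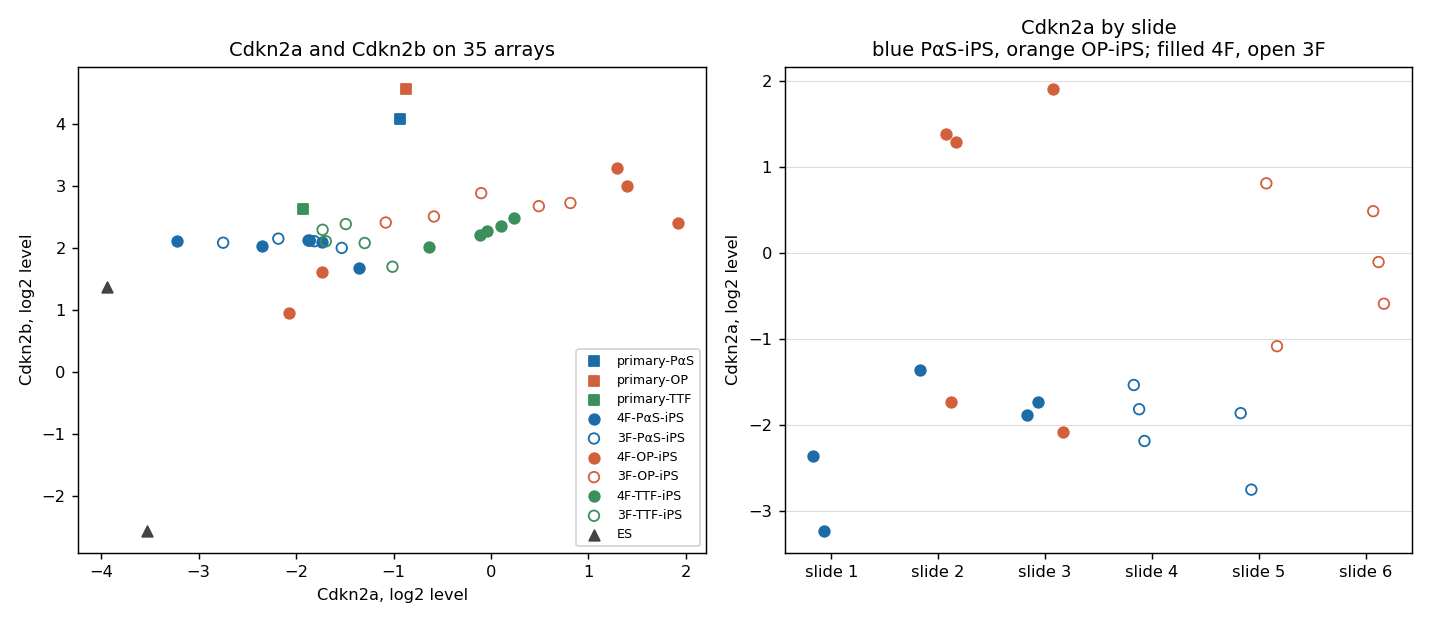
Left, log2 levels of Cdkn2b against Cdkn2a on each of the 35 arrays; right, log2 levels of Cdkn2a in PαS- and OP-iPS clones by slide. On slides 2, 3 and 5 the mean of OP-iPS clones lay above that of PαS-iPS clones, and the 2 low 4F-OP-iPS clones were on slides 2 and 3, each beside high ones.

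Cdkn2a and Cdkn2b, which lie next to each other, rose and fell together across clones once group means were removed (n = 30, r = 0.676, permutation adjusted p = 0.0008; rho = 0.415, adjusted p = 0.117; adjusted over 5 pairs). Without the 2 clones farthest from the median of Cdkn2a it was r = 0.485 (permutation adjusted p = 0.0548), which no longer passed. It was 0.717 within slides. By source, it passed within OP-iPS clones (n = 10, r = 0.847, permutation adjusted p = 0.0057; rho = 0.855, adjusted p = 0.0159), and r was -0.535 within PαS-iPS and -0.039 within TTF-iPS clones. The other pairs examined, Trp53 with Cdkn1a (r = 0.04), Trp53 with Mdm2 (r = 0.0097), Cdkn1a with Mdm2 (r = -0.274) and Cdkn1a with Ccng1, another p53 target (r = -0.111), did not pass (permutation adjusted p from 0.363 to 0.959). Their rho ran from -0.108 to 0.149 (permutation adjusted p = 0.855).

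Trp53 gave different answers with each of its probes. With the brighter probe ES cells were at log2 levels of 1.45 and 0.94, and primary PαS, OP and TTF cells were at -0.61, -1.79 and -1.17. The clones ran from -1.46 to 1.00 with a median of -0.16, 29 of 30 were below both ES lines, and 24 of 30 were above all primary cells. With the dimmer probe ES cells were at -0.72 and -0.68, primary cells at -0.27, -0.32 and 0.16, and clones from -0.88 to 0.34.

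By the brighter probe clones were lower than ES cells by a log2 difference of -1.38 ± 0.317 (SE, limma adjusted p = 0.00069), and by the dimmer one higher by 0.45 ± 0.181 (adjusted p = 0.0393). Primary cells were lower than clones by -1.0 ± 0.272 by the brighter probe (adjusted p = 0.00235), and by the dimmer one the difference was 0.11 ± 0.153 (adjusted p = 0.557). The former lay at the edge of 2-fold and fell under it with normexp (-0.91) or quantile normalization (-0.88), and without the primary OP array it was -0.70 (adjusted p = 0.0652).

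The brighter Trp53 probe was also lower in 3F- than in 4F-clones. The 4F-PαS-iPS clones had log2 levels of 0.24, 0.80, -0.41, 0.71 and -0.06, and the 3F-PαS-iPS clones of -0.37, -0.63, -0.31, -0.57 and -0.88. The 4F-TTF-iPS clones had -0.22, -0.16, -0.16, 0.12 and 0.29, and the 3F-TTF-iPS clones -1.46, -0.49, -0.53, -0.66 and -0.52, with no overlap. In OP-iPS clones the groups overlapped, and the 4F-clones spread more widely, with 0.02, -0.93, 0.18, 1.00 and 0.18 in 4F and 0.17, -0.87, -0.11, 0.09 and -0.07 in 3F.

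Over the 3 sources, 3F-clones were lower by a log2 difference of -0.59 ± 0.158 (SE, n = 15 and 15, limma adjusted p = 0.00932), 1.5-fold, and with slide as a random block by -0.63 (adjusted p = 0.0732). By the dimmer probe the difference was -0.03 ± 0.0903 (adjusted p = 0.825). The p53-variant probe, which is no member, had a mean log2 level of -2.15 in 3F- and -1.58 in 4F-clones and -0.62 in ES cells. Within single sources the brighter probe's differences were -0.81, -0.25 and -0.71 for PαS, OP and TTF, and none passed (limma adjusted p = 0.157, 0.622 and 0.0977).

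Mdm2, the ubiquitin ligase of p53, was higher in 3F- than in 4F-clones. In OP-iPS clones its log2 levels were 2.17, 2.47, 2.36, 2.35 and 2.50 with 4F and 2.65, 3.22, 3.09, 3.80 and 3.42 with 3F. In TTF-iPS clones they were 2.04, 2.02, 2.42, 2.08 and 2.49 with 4F and 2.68, 3.02, 2.80, 2.97 and 3.50 with 3F. In neither source did the groups overlap.

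PαS-iPS clones showed the smallest difference in Mdm2. Their log2 levels were 2.34, 2.33, 2.44, 2.31 and 2.76 with 4F and 2.61, 2.50, 2.77, 2.86 and 2.78 with 3F, and 4F-PαS-iPS #5 lay among the 3F-clones. ES cells, at 1.92 and 1.59, were below all 30 clones, and primary PαS, OP and TTF cells were at 3.22, 2.04 and 2.10. Groups accounted for 70.7% of the variance of Mdm2 over the clones.

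Over the 3 sources the log2 difference of 3F minus 4F in Mdm2 was 0.64 ± 0.0988 (SE, n = 15 and 15, limma adjusted p = 0.000108), 1.56-fold, so that it passed the test but not 2-fold. The dimmer probe gave 0.69 ± 0.126 (adjusted p = 0.000534), and with slide as a random block the brighter one gave 0.59 (adjusted p = 0.0272). Of the marker lists, the fibroblast genes had a median log2 difference of 0.66 and the pluripotency genes of 1.39, against 0.03 for all probes. Of these, 1 of 17 and 1 of 8 genes were called, each higher with 3F. The 4 clones low in Sox2 and Nanog were all 4F. The median clone's mean log2 level of the pluripotency list was 2.47 with 3F and 2.74 with 4F. The part of these lists in the differences of Mdm2 and Trp53 was not tested. Without the 4 clones low in Sox2 and Nanog the differences were 0.61 for Mdm2 (limma adjusted p = 0.00196) and -0.77 for the brighter Trp53 probe (adjusted p = 0.00333). Within sources, the log2 difference of 3F minus 4F in Mdm2 was 0.87 ± 0.171 for OP (adjusted p = 0.00396, beside 8.1% of probes at the adjusted p alone), 0.78 ± 0.171 for TTF (adjusted p = 0.00546, beside 10.1%) and 0.27 ± 0.171 for PαS (adjusted p = 0.424, beside 0.0217%). The differences between sources in this effect did not pass (limma F test of the interaction over all probes, adjusted p = 0.263).

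Slides limited this comparison, since none held 4F- and 3F-clones of the same source. With slide as a random block the adjusted p for Mdm2 became 0.0596 in OP and 0.403 in TTF, and the probes passing at the adjusted p alone fell from 2237 to 211 in OP and from 2790 to 7 in TTF. Without the 4 clones low in Sox2 and Nanog the difference in OP was 0.81 (adjusted p = 0.168). In PαS the 6 probes behind the background share became 1012 without 4F-PαS-iPS #3 and 253 without #5. With slide as a fixed term, which could be estimated for TTF only, the log2 difference turned to -0.50. That value rested on 1 clone of each group, linked through PαS- and OP-iPS clones. They were 3F-TTF-iPS #1, the lowest of its group, and 4F-TTF-iPS #5, the highest of its group. Within PαS and OP, factors and slide cannot be told apart.

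Clones exceeded ES cells in Mdm2 by a log2 difference of 0.91 ± 0.198 (SE, limma adjusted p = 0.000418) by the brighter probe, under 2-fold, and by 1.64 ± 0.252 (adjusted p = 6.28e-06) by the dimmer one. Between primary cells and clones it was -0.21 ± 0.192 (adjusted p = 0.36) by the brighter and -0.84 ± 0.231 (adjusted p = 0.00272) by the dimmer probe.

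**Figure D3:**
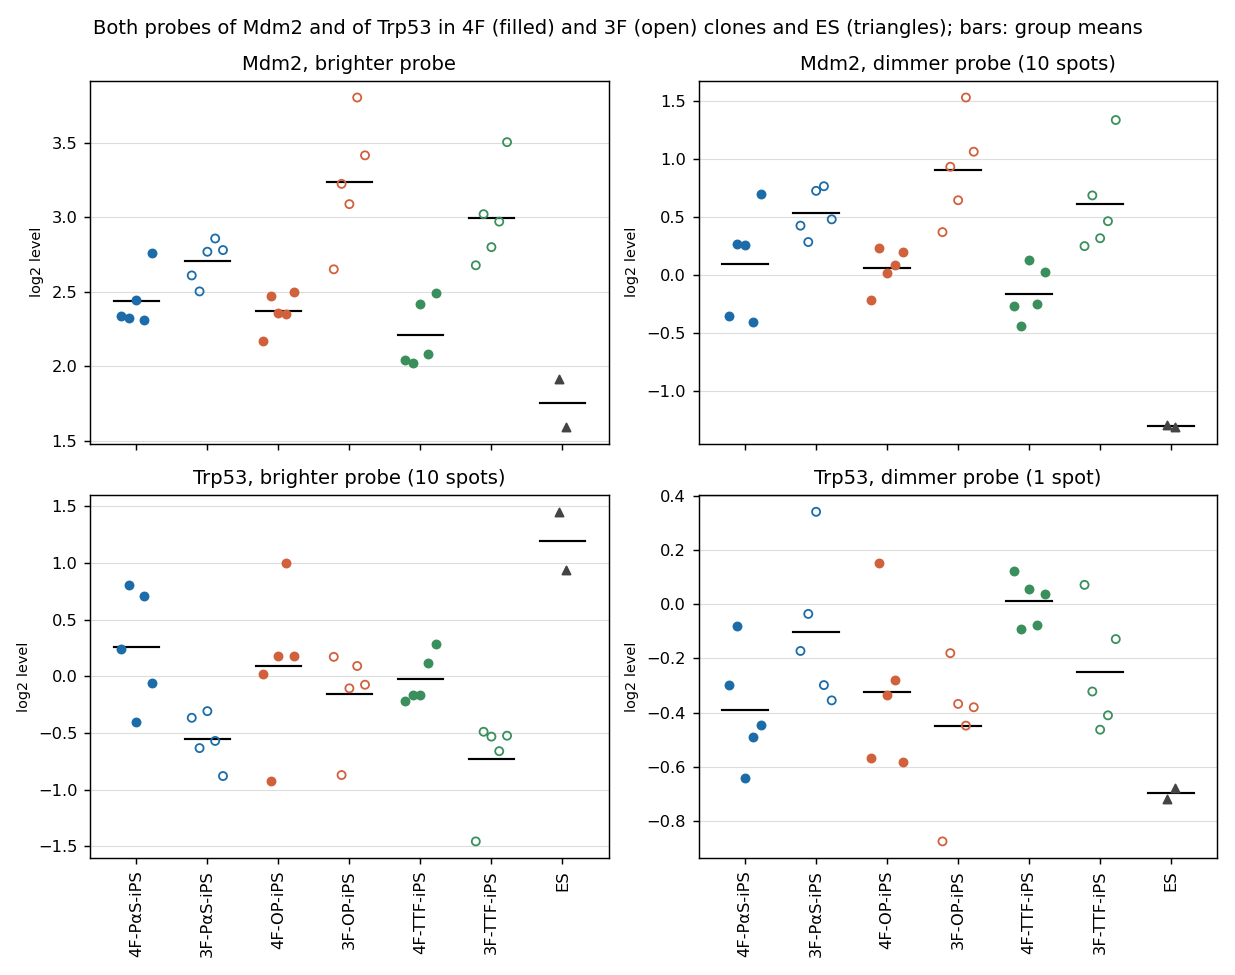
Log2 levels of both probes of Mdm2 (top) and of Trp53 (bottom) in each clone and ES line, with group means as bars. Both Mdm2 probes put the 3F-clones of OP and TTF above their 4F-clones without overlap, while ES cells were at 1.45 and 0.94 with the brighter Trp53 probe, above all clones but 4F-OP-iPS #4 (1.00), and at -0.72 and -0.68 with the dimmer one.

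Cdkn1a, the p53 target p21, was higher in every clone than in ES cells. Its log2 levels were 1.04 in EB-3 and -0.15 in RF8, and 2.47 to 4.54 in the 30 clones (median 3.21). Primary PαS, OP and TTF cells were at 4.27, 2.92 and 2.91, within the range of the clones. The clones exceeded ES cells by a log2 difference of 2.82 ± 0.328 (SE, limma adjusted p = 1.24e-07), 7.06-fold, and the value lay between 2.22 and 3.42 with either ES line alone.

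OP-iPS clones had the most Cdkn1a. The 4F-OP-iPS clones were at log2 levels of 4.07, 2.80, 4.35, 2.71 and 3.86, and the 3F-OP-iPS clones at 4.54, 3.68, 3.83, 3.31 and 3.28. The 4F-PαS-iPS clones were at 2.72, 2.91, 2.47, 2.55 and 2.83, and the 3F-PαS-iPS clones at 2.62, 2.92, 3.49, 3.50 and 3.33. As with Cdkn2a, #2 and #4 were the low 4F-OP-iPS clones, and lay in the range of the PαS-iPS clones.

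The log2 difference of PαS- minus OP-iPS clones in Cdkn1a was -0.71 ± 0.201 (SE, limma adjusted p = 0.0448), 1.64-fold. With slide as a random block it was -0.70 (adjusted p = 0.0603), and it no longer passed with most single clones left out (-0.82 to -0.61, adjusted p up to 0.109). TTF-iPS clones, from 2.82 to 3.63, lay between. All PαS-iPS clones were below their source array, whereas 8 of 10 OP-iPS and 9 of 10 TTF-iPS clones were above theirs. Over all clones the difference from primary cells was 0.10 (95% interval -0.49 to 0.70).

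Cdkn1b (p27), an inhibitor of cyclin E and A kinases, was also higher in every clone than in ES cells. It was at log2 levels of -2.21 in EB-3 and -1.37 in RF8 and -0.80 to 1.26 in clones, with primary PαS, OP and TTF cells at -1.33, 0.51 and 0.11. The log2 difference of clones minus ES cells was 1.85 ± 0.316 (SE, limma adjusted p = 2.46e-05), and 1.31 ± 0.359 (adjusted p = 0.00341) by the next brightest probe. Against primary cells the brightest probe gave a difference of -0.30 ± 0.297 (primary minus clones, adjusted p = 0.393), and the next one -1.22 ± 0.312 (adjusted p = 0.00138).

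Ccnd1, cyclin D1, separated primary cells from clones most clearly. Primary PαS, OP and TTF cells were at log2 levels of 5.96, 5.08 and 4.93, and the 30 clones lay between 0.50 and 4.23 (median 2.46), without overlap. The log2 difference was 2.65 ± 0.434 (SE, limma adjusted p = 7.27e-06), 6.30-fold, and stayed between 2.34 and 2.85 with each primary array left out in turn. The ES lines, at 2.03 and 2.73, lay within the clones, and the difference of clones minus ES cells was 0.28 (95% interval -0.80 to 1.37).

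Among clones Ccnd1 was even in PαS-iPS and uneven elsewhere. The 10 PαS-iPS clones lay between 2.08 and 2.65 on the log2 scale. The 4F-OP-iPS clones were at 3.64, 0.50, 4.13, 3.34 and 3.51, and the 3F-OP-iPS clones at 4.23, 2.32, 3.46, 2.29 and 2.21. Clone #2 of the 4F-OP-iPS group stood far below the rest. The 4F-TTF-iPS clones, at 2.74 to 4.09, overlapped slightly with the 3F-TTF-iPS clones, at 1.65 to 2.75 (log2 difference of 3F minus 4F -1.13 ± 0.459, SE, limma adjusted p = 0.113).

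Ccnd2, cyclin D2, was highest in primary bone marrow cells. Its log2 levels were 6.37 in PαS, 6.62 in OP and 4.12 in TTF cells, 3.47 to 5.41 in clones and 3.98 and 2.64 in EB-3 and RF8. Primary TTF lay within the range of the clones. The log2 difference of primary cells minus clones was 1.26 ± 0.354 (SE, limma adjusted p = 0.00322), but 0.80 (adjusted p = 0.1) without the OP array and 0.92 (adjusted p = 0.0631) without the PαS array. Clones exceeded ES cells by 1.13 ± 0.347 (adjusted p = 0.00777), and by 0.46 (adjusted p = 0.423) against EB-3 alone. The other Ccnd2 probes gave 0.88 (adjusted p = 0.0332), under 2-fold, and 1.16 (adjusted p = 0.0068).

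Ccne1, cyclin E1, which drives entry into S phase, ran from primary cells through clones to ES cells. Primary PαS, OP and TTF cells were at log2 levels of 4.36, 1.37 and 2.51, clones at 3.38 to 5.30 and ES cells at 6.59 and 5.65. No clone reached the ES lines by this probe, and the PαS array lay within the clones. By the dimmer probe the clones ran from -0.98 to 1.03 and overlapped RF8, at 0.65, with EB-3 at 1.73. The log2 difference of clones minus ES cells was -1.91 ± 0.33 (SE, limma adjusted p = 3.07e-05). By the dimmer probe it was -1.35 (adjusted p = 0.00114). That of primary cells minus clones was -1.46 ± 0.357 (adjusted p = 0.000906), and -0.78 (adjusted p = 0.0824) without the OP array.

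Rb1, the pocket protein that holds E2F factors in check, did not pass against ES or primary cells, although 28 of 30 clones lay above both ES lines, and it was lower in PαS- than in OP-iPS clones. The 4F-OP-iPS clones were at log2 levels of 1.62, 0.56, 1.94, 0.57 and 1.92, and the 3F-OP-iPS clones at 1.82, 1.35, 2.31, 1.83 and 1.42, against 0.12 to 1.27 in PαS-iPS clones. Again #2 and #4 were the low 4F-OP-iPS clones. The log2 difference of PαS- minus OP-iPS clones was -0.77 ± 0.182 (SE, limma adjusted p = 0.0206), 1.7-fold. With slide as a random block it was -0.70 (adjusted p = 0.0427), with slide as a fixed term -0.59 (adjusted p = 0.174), and without 4F-OP-iPS #3 it was -0.69 (adjusted p = 0.0546).

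In TTF-iPS clones Rb1 was at 0.61 to 0.86 with 4F and at 1.03 to 1.54 with 3F on the log2 scale, without overlap, and the difference of 0.60 ± 0.257 (SE) did not pass (limma adjusted p = 0.134). ES cells were at 0.56 and 0.39 and primary cells at 1.46, 1.2 and 1.80. The log2 difference of clones minus ES cells was 0.63 (95% interval 0.03 to 1.24, adjusted p = 0.0742), and that of primary cells minus clones 0.38 (95% interval -0.12 to 0.88).

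**Figure D4:**
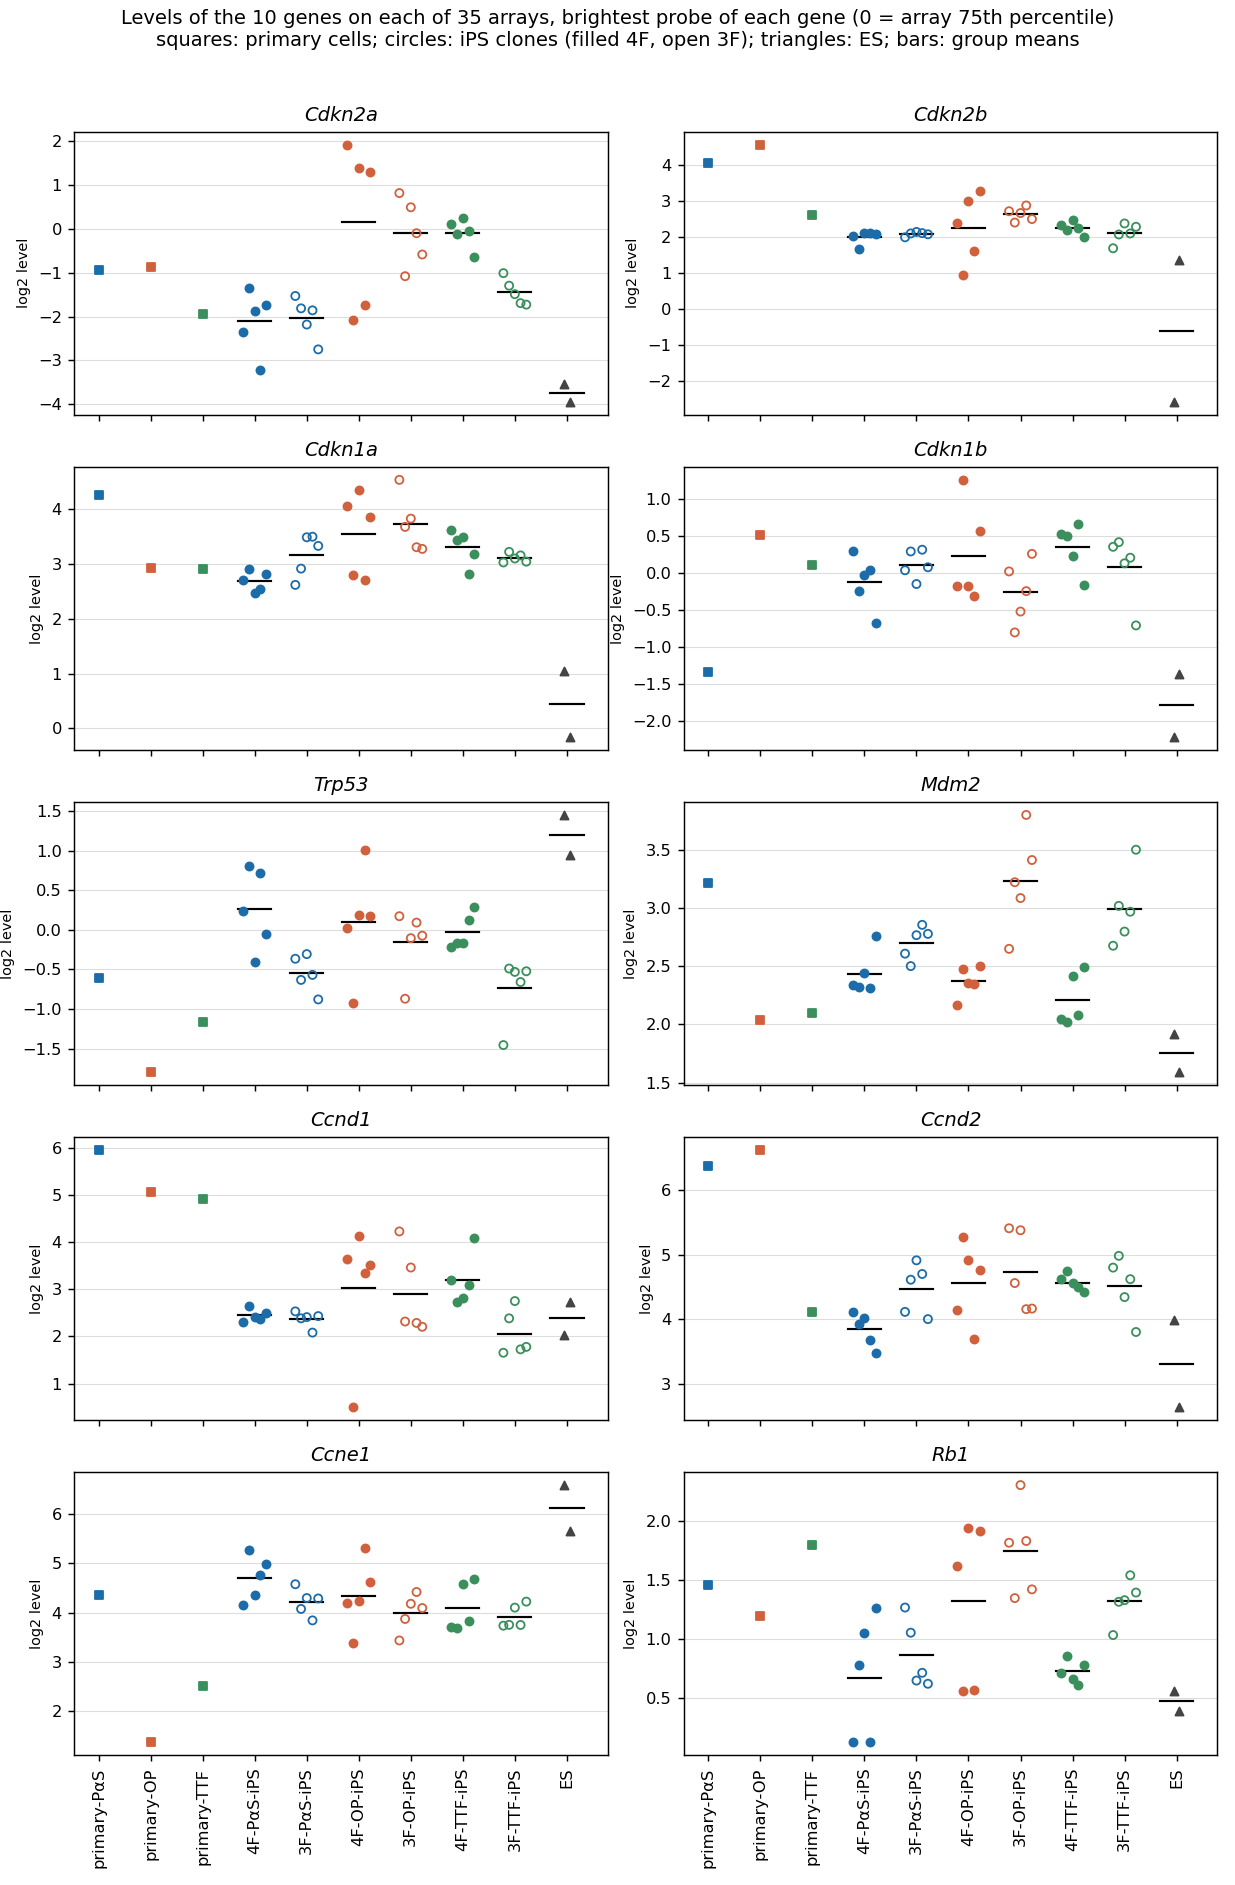
Log2 levels of the brightest probe of each of the 10 genes on all 35 arrays, with primary cells as squares, 4F-clones as filled and 3F-clones as open circles, ES lines as triangles and group means as bars. Clones #1, #3 and #5 of the 4F-OP-iPS group lay above #2 and #4 for Cdkn2a, Cdkn2b, Cdkn1a and Rb1, and all clones lay above both ES lines for Cdkn2a, Cdkn1a, Cdkn1b and Mdm2.

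The wider pathway was described with 6 lists of genes. As for the members, the part of the fibroblast genes (15 of 17 higher in clones than in ES cells, and 14 of 18 higher in primary cells than in clones) in the differences below was not tested. Of 24 other p53 targets 9 were called higher and 0 lower in clones than in ES cells (median log2 difference 0.68, against -0.11 for all probes), a share near the 36.2% of all probes called. The higher ones included the autophagy gene Dram1 (4.96), the death receptor gene Fas (3.18), Tnfrsf23 (2.59) and the antiproliferative gene Btg2 (1.99). Against clones, primary cells had 2 of the 24 higher and 8 lower, again near the background of 39.1%. The lower ones included Perp (-5.70), Pmaip1 (-3.79) and Eda2r (-2.56), genes of apoptosis and adhesion, and Fas was higher (1.91).

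Of 15 regulators of p53, 0 were called higher and 4 lower in clones than in ES cells, among them the checkpoint kinase Chek1 (log2 difference -1.99) and the deacetylase Sirt1 (-1.19). Primary cells had 1 higher than clones, the kinase Hipk2 (2.02), and 7 lower, with the phosphatase Ppm1d at -2.23.

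Of the 15 regulators of the Ink4a/Arf locus 4 were called higher and 4 lower in clones than in ES cells. The repressor Tbx2 (log2 difference 2.61) and the activator Ets1 (1.79) were higher, and the Polycomb members Cbx7 (-2.61) and Eed (-1.73) lower. In primary cells 1 was higher than in clones, the Polycomb repressor Bmi1 (2.23), and 8 were lower, among them Tbx3 (-4.02), the histone demethylase Jmjd3 (-2.35) and the methyltransferase Ezh2 (-1.79).

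Of 12 genes of the Rb family and E2F, 0 were called higher and 7 lower in clones than in ES cells, with E2f2 at -2.08, E2f7 at -1.89 and E2f4 at -1.74 (log2 differences). In primary cells 1 was higher than in clones, Rbl2 (1.84), and 3 were lower. Of 4 other CDK inhibitors, clones had 2 higher than ES cells, Cdkn2c (1.66) and Cdkn3 (1.36). Primary cells had 1 higher than clones, Cdkn2c (2.85), and 2 lower, Cdkn1c (-2.76) and Cdkn3 (-1.12). Of 10 other cyclins and CDKs 1 was called in clones against ES cells, the germ-cell cyclin Ccna1 (1.72), and primary cells had 6 lower than clones, among them Ccna1 (-4.60) and Ccnb1 (-3.34), and 1 higher.

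Between 3F- and 4F-clones 4 genes of these lists were called: Fas (log2 difference 1.03), Cdkn1c (1.32) and Ccna1 (1.18) were higher with 3F, and E2f2 (-1.12) was lower. Between clones of different sources no gene of the 6 lists was called. The shares of called members in these lists are to be read beside the background shares of 36.2%, 39.1% and 5.34%.

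The mean log2 level of the fibroblast list was set against each gene over the 30 clones after removal of group means. None of the 10 relations passed (permutation test, adjusted over 10). The nearest were Cdkn1a (r = -0.458, rho = -0.449, adjusted p = 0.0938 and 0.139) and Cdkn2a (r = -0.426, rho = -0.354, adjusted p = 0.0938 and 0.271), both lower where the list was higher. The list's mean log2 level ran from 0.22 to 2.95 in 3F- and from -0.56 to 1.88 in 4F-clones.

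The probes most like single genes over the 30 clones were looked up among 20292, as a description, since the clones share slides and groups. For Cdkn2a they were Cacna2d2 (r = 0.919), Cd109 (0.917) and Fgfbp1 (0.915), for Cdkn1a Wibg (0.882), Nfic (0.849) and Cd44 (0.847), and for Ccnd1 Parp9 (0.906), Aes (0.894) and Ctf1 (0.887). For Mdm2 they were Dmn (0.874), Rhob (0.866) and Trafd1 (0.866), and within slides these fell to 0.640, 0.583 and 0.692. For Cdkn2b they were 4930404J24Rik (0.841), Lynx1 (0.825) and H2-DMb2 (0.825).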

How the data were processed

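RNA of 30 iPS clones, 2 ES lines and 3 primary cell samples had been hybridized to 1-colour Agilent arrays. The deposited intensities were background-subtracted by the authors' scanner software (Feature Extraction), without scaling between arrays, and the authors' table of log2 values, in which every probe has a median of 0, was made in GeneSpring GX. Spots with outlier flags were left out, replicate spots averaged, and log2 intensities taken minus the 75th percentile of each array. Probes that exceeded background on all arrays of 1 or more groups were tested with limma 3.58.1 (R 4.3.3), in 1 fit of 32 arrays (7 groups, 27623 probes) and, for primary cells, 1 of 35 arrays with the 3 primary arrays as a group (28300 probes). Other values were computed with Python 3.11.15. The fits were tested on simulated data, where 76.5% (clones against ES) to 97% (3F against 4F) of 200 probes changed by 2 log2 units were recovered among 27468. The simulated errors were independent, while the fit of 32 arrays had a correlation within slides of 0.329. Smaller changes were not simulated, so that these shares do not apply to them. On each array 56.6% to 71.1% of probes were well above background, and the number of arrays limits the precision. No arrays were identical (highest correlation 0.991).

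All 10 members are named, and of each list at most the 4 called genes with the largest change. Members and lists were chosen with earlier results of these data known. Of the listed genes 1, Atr, was not matched, and older names (1200002N14Rik for Dram1) were matched through RefSeq synonyms. Alternatives were normexp (offset 50), quantile normalization, the authors' table, no filter, no fold minimum, second probes, slide or clone number as a block, and leaving out arrays. Normexp with outlying backgrounds replaced was chosen after seeing the data. The probes most like Rb1 are not reported here.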

Additional observations from a re-analysis of the deposited data

Results flagged for a closer look

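In 60 groups of 5 clones (10 genes in 6 groups), 5 held a clone whose gap to its nearest neighbour, as a share of the range of the group, was above Dixon's limit of 0.71, and about 1 in 20 groups does so by chance. For Ccnd1 this was 4F-OP-iPS #2, at a log2 level of 0.50 against 3.34 to 4.13 in the other clones (gap 0.781). This clone was also among those low in Sox2 and Nanog. For Trp53, by the brighter probe, they were 3F-TTF-iPS #1, at -1.46 against -0.66 to -0.49 (gap 0.823), and 3F-OP-iPS #2, at -0.87 against -0.11 to 0.17 (gap 0.734). For Cdkn2b it was 4F-PαS-iPS #2, at 1.67 against 2.03 to 2.12 (gap 0.801), and for Cdkn1b 3F-TTF-iPS #5, at -0.71 against 0.13 to 0.41 (gap 0.746). All 5 were the lowest of their group.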

How the results depend on the processing

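The number of members called kept within 1.5 times its main value under normexp, quantile normalization, the authors' table, no filter, second probes and slide as a random block. Against primary cells it was 5 (4 to 5 under these), and 1 to 5 with arrays left out in turn, the 1 being without primary OP. Against ES cells it was 7 (6 to 8), and 6 to 7 with arrays left out. With no fold minimum it rose from 0 to 2 for 3F against 4F and from 1 to 3 for PαS- against OP-iPS, which fell to 0 with slide as a fixed term. For PαS- against TTF-iPS it rose from 0 to 1 without the 4 clones low in Sox2 and Nanog. Of 15 correlations 1 passed, Cdkn2a with Cdkn2b, and it did so within OP-iPS clones as well (r = 0.847), while 0 passed without the 2 farthest clones, within PαS-iPS and within TTF-iPS clones.

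Clone numbers carry no pairing (75 pairs, median r = 0.00169, 18 over 0.1, and 29 of 150 looked up were most alike in number), and with the replicate block 4 in place of 5 members were called against primary cells (Cdkn1a turned to -0.13), with no other count changed. Under alternatives other than leaving out an array, 747 values of single genes or pairs kept direction and side of the threshold, 43 turned, 10 came to pass and 7 no longer passed. Slide as a fixed term could be estimated only for PαS- against OP-iPS and within TTF-iPS clones, the latter through 1 clone of each group.

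Signs turned in these cases (log2 differences, the cause was not tested). For 3F against 4F within single sources, these cases and the counts above cover only Mdm2 and Trp53 and, in TTF-iPS clones, Cdkn2a and Rb1. The values that had passed before were Trp53 against primary and ES cells and Mdm2 for 3F against 4F TTF-iPS. With second probes, Trp53 was 0.11 against primary cells, 0.45 against ES, 0.29 for 3F against 4F PαS-iPS, 0.14 for PαS- against OP-iPS, -0.13 for PαS- against TTF-iPS and -0.27 for OP- against TTF-iPS. There Cdkn1b was -0.20 (PαS against OP) and 0.094 (OP against TTF), and Mdm2 0.089 (PαS against TTF). With normexp Cdkn1b was -0.0016 and -0.016 (PαS against OP). Cdkn1a in primary cells was -0.11 with quantile normalization and -0.011 with slide as a random block, where Mdm2 was 0.0055 (PαS against TTF). With slide as a fixed term Cdkn2a was 0.016 and Mdm2 -0.50 for 3F against 4F TTF-iPS, each from 1 clone of each group. With the same term Cdkn1b was -0.016 and Mdm2 0.0037 for PαS against OP. Without the 4 low clones Ccne1 was -0.020 (PαS against OP) and Ccnd2 -0.050 (OP against TTF).

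With arrays left out in turn, these ranges crossed 0: for primary cells Cdkn1a -0.35 to 0.33, Cdkn1b -0.68 to 0.25 and Cdkn2a -0.50 to 0.030; for ES Ccnd1 -0.065 to 0.63; for 3F against 4F Cdkn2b -0.0014 to 0.19; for PαS against OP Cdkn1b -0.057 to 0.14 and Trp53 -0.24 to 0.00054; for PαS against TTF Mdm2 -0.074 to 0.030.

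Correlations turned as follows. Without the 2 farthest clones Cdkn1a with Ccng1 was 0.189 and Trp53 with the fibroblast list 0.037. Within PαS-iPS clones Trp53 with Mdm2 was -0.445, Cdkn1a with Mdm2 0.537, Cdkn1a with Ccng1 0.602 and Cdkn2a with Cdkn2b -0.535, and with the fibroblast list Cdkn2a was 0.12, Cdkn2b 0.586, Cdkn1b 0.155, Ccnd2 0.228, Ccne1 -0.653 and Rb1 0.253. Within OP-iPS clones Trp53 with Mdm2 was -0.095 and Trp53 with the list 0.0633. Within TTF-iPS clones Trp53 with Cdkn1a was -0.228, Cdkn1a with Ccng1 0.411 and Cdkn2a with Cdkn2b -0.039, and with the list Cdkn1b was 0.0044, Mdm2 -0.126, Ccnd1 0.495 and Ccnd2 0.259. Without the 4 low clones Trp53 with Cdkn1a was -0.094.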

Other observations

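Beside the 3 probes given above, those most like the brightest Ccnd2 probe over the 30 clones were Cacnb3 (r = 0.818) and Dbndd2 (0.816), and those most like Cdkn1b were Ddah2 (0.742), Tusc3 (0.735) and Wasl (0.728). For the brighter Trp53 probe, Tex9 (0.892) and Apip (0.874) followed the p53-variant probe. On the slide that held EB-3 and the primary cells together, primary PαS, OP and TTF cells exceeded EB-3 in Cdkn2b by log2 differences of 6.63, 7.13 and 5.19 and in Cdkn2a by 2.60, 2.65 and 1.60, and lay below it in Ccne1 by -2.22, -5.22 and -4.08. Each is a difference between single arrays, with no replicate.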
